A study of Mus musculus with 4 samples.

Results

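The tumour suppressor p53 (Trp53 in the mouse) and 9 genes long known as its direct targets were followed across 4 RNA sequencing libraries of primary mouse embryonic fibroblasts. The 10 genes were chosen by symbol (Trp53, Cdkn1a, Mdm2, Ccng1, Zmat3, Sesn1, Sesn2, Phlda3, Trp53inp1 and Aen), and all 10 were found among the 55573 gene identifiers of the deposited files. Such fibroblasts are taken from embryos and cultured for a limited time, without being turned into a permanent line. Every culture had received SAG, a small molecule that activates Smoothened and so Hedgehog signalling, at 100 nM for 24 h, and the labels name no DNA-damaging agent. The 4 groups were untransfected wild type (WT), Dyrk2 knockout (Dyrk2-KO), and 2 transfected wild-type groups, of which siNeg received a control siRNA and siDyrk2 the siRNA that targets Dyrk2. There was 1 library per group. The labels do not say how the knockout allele was made, how long the siRNAs acted or whether cultures came from separate embryos. No difference below therefore has a replicate check, and each one compares libraries.

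p53 is a transcription factor that is kept low in unstressed cells by the ubiquitin ligase MDM2, whose gene p53 itself activates. When DNA is damaged or growth signals are aberrant, p53 is phosphorylated and stabilised, and its targets halt the cell cycle, adjust metabolism or start apoptosis. DYRK2, a dual-specificity kinase, is a reported p53 kinase that in human cells phosphorylates a serine linked to the choice of apoptotic targets. The comparisons below ask whether the transcripts of p53 and of its targets differed where Dyrk2 was low. The amount of p53 protein and its phosphorylation were not measured.

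Dyrk2 was low where the labels place its loss, at 6.59 FPKM in wild type, 0.57 in the knockout, 7.06 with siNeg and 0.81 with siDyrk2. FPKM counts fragments per kilobase of exon, scaled to the fragments assigned to genes. Estimated depth ran from 19979396 to 23925900 fragments. Fibroblast markers summed to between 5926.65 and 8340.67 FPKM in the 4 libraries, skeletal muscle markers to at most 0.21, endothelial markers to at most 5.31 and epithelial markers to at most 4.86, with Tie1 and Myf5 at 0. Markers of macrophages and leukocytes summed to 240.33 FPKM in wild type, 495.22 in the knockout, 273.69 with siNeg and 339.12 with siDyrk2, and none of the 11 was at 0 in any library. The Y-linked gene Ddx3y was at 8.28 FPKM in the knockout and at 0.02 or less elsewhere, so the knockout culture also differed from the others in sex. In such bulk samples fewer cells of a type and less RNA per cell cannot be told apart. The part of these differences in the values below was not tested.

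A pair of promoters is shown since their genes had the highest mean levels among the members and each holds a nearly complete binding site for p53. The p53 consensus was searched as a pair of directly adjacent 10-base sites, and pairs with bases between them were not searched. Both strands were covered at once, because the consensus is its own reverse complement. RefSeq windows of 300 bases on GRCm38.p6 were used, 250 before and 50 after each annotated start. In a full site, mismatches were allowed only outside the fixed C and G of each 10-base site. The 250 bases before the start follow, 5′ to 3′, with the full 20-base site in capitals. The Ccng1 stretch is chr11:40755287-40755536 on the minus strand and the Cdkn1a stretch is chr17:29090729-29090978 on the plus strand, before the more upstream of 2 annotated Cdkn1a starts.
Ccng1 promoter: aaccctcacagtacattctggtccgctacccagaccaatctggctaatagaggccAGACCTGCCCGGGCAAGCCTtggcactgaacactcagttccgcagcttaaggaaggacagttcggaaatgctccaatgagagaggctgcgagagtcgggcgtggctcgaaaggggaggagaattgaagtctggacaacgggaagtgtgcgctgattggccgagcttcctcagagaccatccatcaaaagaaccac
Cdkn1a upstream promoter: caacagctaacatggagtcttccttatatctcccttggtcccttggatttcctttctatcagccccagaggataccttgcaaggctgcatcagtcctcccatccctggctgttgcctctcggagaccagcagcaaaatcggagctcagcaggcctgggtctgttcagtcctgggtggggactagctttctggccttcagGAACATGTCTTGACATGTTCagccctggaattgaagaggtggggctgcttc

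Each of these sites has 1 mismatch to the consensus, and the Ccng1 site begins 195 bases and the Cdkn1a site 51 bases before its start. A full site with at most 1 mismatch occurred in 22 of all 32851 promoter windows (0.067%). Among the members with a window, 8 genes with 11 windows, it occurred in 2. Full sites with 3 mismatches were found for 3 further members and are shown with the mismatched bases in lower case, to compare with the sites above. Such weaker matches were present in 1.38% of all windows, counting every adjacent pair with at most 3 mismatches, none of them at the fixed C and G.
Aen, chr7:78895937-78895956, plus strand: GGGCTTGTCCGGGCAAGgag
Trp53, chr11:69580284-69580303, plus strand: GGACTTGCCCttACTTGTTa
Sesn1, chr10:41887266-41887285, plus strand: AAGCTTGTTTttGCTgGCCT

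Mdm2 held a lone 10-base site (GAACTTGCCT, chr10:117710935-117710944, minus strand), a feature of 8.36% of all windows. The windows of Sesn2 and Phlda3 held no 10-base match, which says only that these letters are not in the windows searched. Zmat3 and Trp53inp1 had no window. A match is a description of sequence, and no binding was measured.

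The members spanned a wide range of transcript levels, and the range of a gene here is that over the 4 libraries. Ccng1, which encodes cyclin G1, a partner of phosphatase 2A that acts on MDM2, had the highest mean over the 4 libraries at 187.7 FPKM. Cdkn1a, encoding the cyclin-dependent kinase inhibitor p21, followed at 159.0 FPKM, and Phlda3, whose product competes with AKT for membrane lipids, at 138.9 FPKM. The range of Cdkn1a overlapped those of Ccng1 and Phlda3, which did not overlap each other, and all 3 lay above the range of every other member.

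Sesn2, a stress-induced inhibitor of mTORC1 signalling, came next at a mean of 45.7 FPKM, and Trp53inp1, a nuclear cofactor linked to apoptosis and autophagy, at 40.1. Mdm2 had 29.3 FPKM and Trp53 itself 23.4. Zmat3, which encodes a zinc finger protein that binds RNA and directs splicing, had 20.5, Aen, an apoptosis-enhancing nuclease, 16.7, and Sesn1, the other sestrin among the members, 8.2. The ranges of Sesn2 and Trp53inp1 overlapped, as did those of Trp53 and Zmat3, whereas Mdm2, Aen and Sesn1 were each separated from their neighbours in the order.

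**Figure D1:**
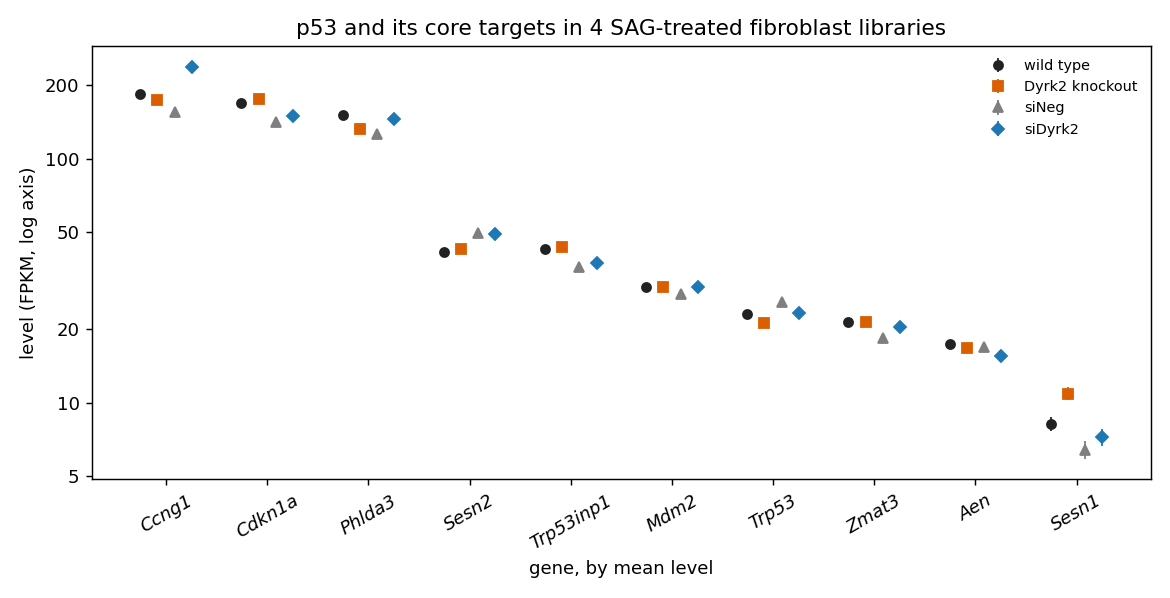
Level of each member in FPKM (log axis) in the 4 libraries, 1 marker per library, with exact 95% Poisson intervals that cover counting error only and are mostly smaller than the markers. The 4 markers of a gene lie close together, with Ccng1 in the siDyrk2 library (237.39 FPKM) and Sesn1 in the knockout library (10.92 FPKM) standing highest above the rest of their gene.

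Differences between libraries were small beside these differences between genes. The ratio of the highest to the lowest library was 1.07 for Mdm2, between 1.11 and 1.25 for 7 other members, 1.52 for Ccng1 and 1.70 for Sesn1. A ratio of at most 1.5 was thus found in 8 of 10 members, and in 81% of the 7501 gene symbols, each counted once, with a mean of at least 5 FPKM. The siNeg library held the lowest value of 7 members and the knockout library the highest value of 5. For Mdm2 that highest value was 29.82 FPKM against 29.81 in wild type. The same shares over all genes were not counted.

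In the knockout, the members stood close to wild type as a group. None of the 10 was at least 1.5-fold different on FPKM + 1, where 6.62% of all 12817 genes tested were (1.78% at least 2-fold). Their median log2 ratio was 0.01, against -0.02 over all genes, and 6 members were higher (43.7% of all genes) and 4 lower (55.6%). A log2 ratio here is that of FPKM + 1, which understates differences of weakly expressed genes. Genes tested are those with at least 1 FPKM in at least 1 library, and all 10 members passed this filter.

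Trp53 (chromosome 11, 69580359 to 69591873 on GRCm38, plus strand) was at 23.11 FPKM in wild type against 21.30 in the knockout. The knockout value was thus 7.8% lower, a ratio of 0.922 with an exact 95% counting interval of 0.866 to 0.980. Intervals of this kind describe counting error alone, and cultures can differ by more. A processed pseudogene of Trp53 on another chromosome was listed at 3.58 to 4.57 FPKM. How fragments matching both genes were assigned is not stated, so the Trp53 values are uncertain to that extent.

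The feedback regulators did not move as a pair in the knockout. Mdm2 (chromosome 10, 117688875 to 117710758) was at 29.81 FPKM in wild type against 29.82 in the knockout, with an interval of the ratio from 0.954 to 1.049. Ccng1 (chromosome 11, 40748552 to 40755311) was at 184.46 and 173.39 FPKM, 6.0% lower in the knockout (ratio 0.940, 0.918 to 0.962). The Mdm2 levels were as good as equal and the Ccng1 difference exceeded counting error by a small margin.

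The arrest gene Cdkn1a (chromosome 17, 29090976 to 29100727) was at 169.13 FPKM in wild type against 176.37 in the knockout, a ratio of 1.043 (1.019 to 1.068). Of its 3553 exonic bases 273 overlap an antisense transcript listed at 0.04 to 0.10 FPKM. p21 blocks cyclin-dependent kinases and so keeps cells from entering S phase, and its transcript was 4.3% higher in the knockout.

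Among the growth and metabolism genes Sesn1 (chromosome 10, 41809935 to 41908424) was the member that differed most. It was at 8.20 FPKM in wild type against 10.92 in the knockout, 33.2% higher (ratio 1.332, 1.210 to 1.466), with a log2 ratio of 0.37. The middle 90% of all genes tested lay between -0.52 and 0.42 in this comparison, and that of the 7506 genes with a mean of at least 5 FPKM between -0.39 and 0.34. Sesn1 was thus inside the range of all genes and just outside that of genes with a mean of at least 5 FPKM. That set also holds far more abundant genes, and no set matched to the level of Sesn1 was examined. Its relative Sesn2 (chromosome 4, 132492032 to 132510501) was at 41.49 and 42.52 FPKM, a ratio of 1.025 (0.976 to 1.075). Sestrins restrain mTORC1 and support antioxidant defence, and only Sesn1 of this pair had an interval that left out 1.

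Of the members linked to cell death, Phlda3 (chromosome 1, 135766119 to 135769136) was at 150.56 FPKM in wild type against 132.40 in the knockout, 12.1% lower (ratio 0.879, 0.845 to 0.915). Trp53inp1 (chromosome 4, 11156431 to 11174379) was at 42.90 and 43.65 FPKM, Aen (chromosome 7, 78895854 to 78911209) at 17.35 and 16.79, and Zmat3 (chromosome 3, 32334792 to 32366014) at 21.36 and 21.54. For these last 3 genes the intervals of the ratio included 1 (0.983 to 1.053, 0.912 to 1.026 and 0.972 to 1.047). In all, the interval left out 1 for 5 of 10 members, with Cdkn1a and Sesn1 higher and Trp53, Ccng1 and Phlda3 lower. It left out 1 for 8 of 10 members with siDyrk2 against siNeg. For siNeg against wild type, where Dyrk2 is intact in both, it did so for 9 of 10. The share of all genes with such an interval was not counted, so these numbers describe the members alone.

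**Figure D2:**
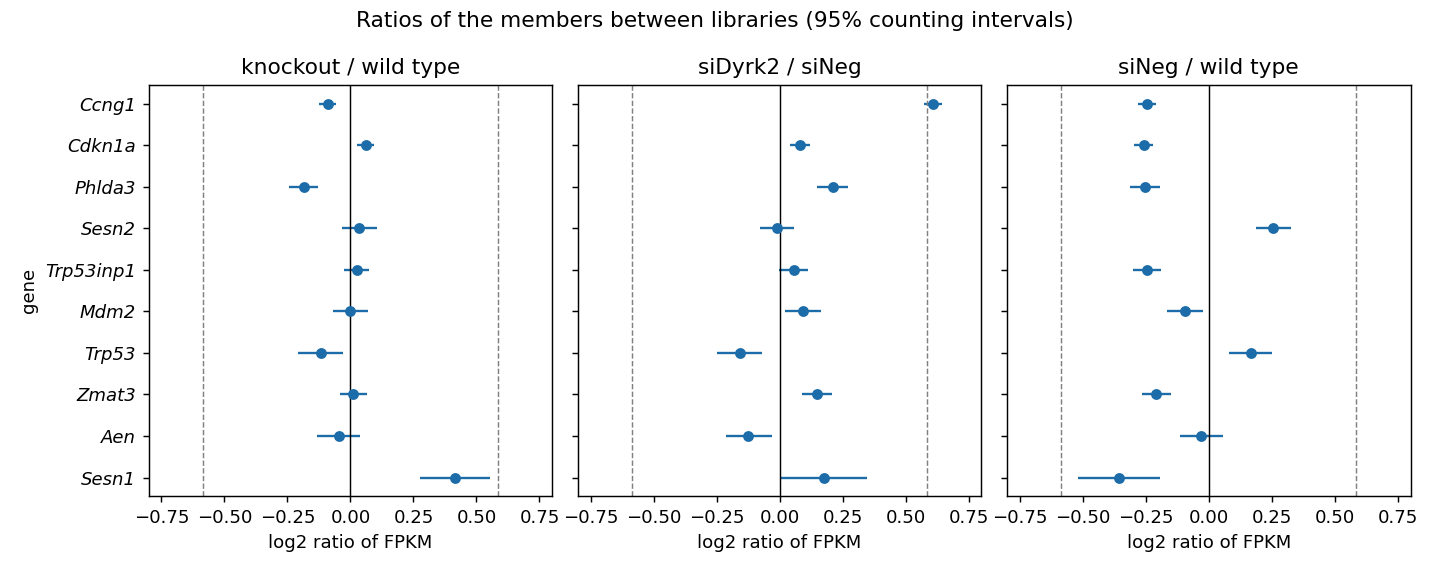
Log2 ratio of the deposited FPKM (no pseudocount) of each member in the knockout, siDyrk2 and siNeg comparisons, with exact 95% counting intervals. Dashed lines mark 1.5-fold. Ccng1 with siDyrk2 (ratio 1.525) is the point that reaches a dashed line, and in the right panel 8 of 10 points lie left of 0.

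With siDyrk2, Ccng1 stood out and the other members were near siNeg. Ccng1 was at 155.67 FPKM with siNeg against 237.39 with siDyrk2, 52.5% higher (ratio 1.525, 1.489 to 1.562, log2 ratio 0.61). It was the single member at least 1.5-fold higher, where 3.77% of all genes were, and none was at least 1.5-fold lower, where 2.73% of all genes were. The siDyrk2 value was also above that of wild type (184.46 FPKM) and of the knockout (173.39 FPKM), and the siNeg value was the lowest of the 4. The median over the members was 0.08, against 0.02 over all genes, and 7 of 10 were higher (54.3% of all genes) and 3 lower (45%).

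Phlda3 was the next member, at 126.40 FPKM with siNeg against 146.26 with siDyrk2 (ratio 1.157, 1.109 to 1.207). Zmat3 was at 18.50 and 20.49 FPKM (1.108, 1.063 to 1.154) and Sesn1 at 6.41 and 7.24 (1.129, 1.003 to 1.272). For each of these 3 the siDyrk2 value lay between those of siNeg and wild type. Mdm2 was at 27.90 FPKM with siNeg against 29.76 with siDyrk2, close to the wild-type value of 29.81.

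Cdkn1a was at 141.31 FPKM with siNeg against 149.35 with siDyrk2 (ratio 1.057, 1.029 to 1.086), both below wild type and the knockout. Trp53inp1 was at 36.18 and 37.59 FPKM (1.039, 0.999 to 1.081) and Sesn2 at 49.53 and 49.13 (0.992, 0.947 to 1.039). For the p21 transcript and these 2 genes the siRNA libraries lay nearer to each other than to either untransfected library. Trp53 was at 25.94 FPKM with siNeg against 23.25 with siDyrk2, 10.4% lower (ratio 0.896, 0.843 to 0.953), and Aen at 17.01 and 15.61, 8.2% lower (0.918, 0.862 to 0.978).

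The controls set against each other, siNeg relative to wild type, showed the widest common displacement of the members. Of the 10 members 8 were lower with siNeg, where 51% of all genes were lower, with a median of -0.22 against -0.01 over all genes. None was at least 1.5-fold different, where 3.78% of all genes were. Dyrk2 is intact in both libraries. Transfection, the control siRNA and any other difference between these cultures cannot be told apart in this design.

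Cdkn1a was at 169.13 FPKM in wild type and 141.31 with siNeg, 16.4% lower (ratio 0.836, 0.814 to 0.857). Ccng1, Phlda3 and Trp53inp1 were lower by nearly the same proportion, with ratios of 0.844 (0.823 to 0.865), 0.840 (0.806 to 0.875) and 0.843 (0.812 to 0.876). Zmat3 was 13.4% lower and Sesn1 21.8% lower, from 8.20 to 6.41 FPKM. A set of 6 targets was thus lower by between 13.4% and 21.8%, while Mdm2 (6.4% lower) and Aen (2.0% lower, ratio 0.980, 0.923 to 1.041) were nearer to wild type.

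The 2 remaining members were higher with siNeg. Sesn2 was at 41.49 FPKM in wild type and 49.53 with siNeg, a ratio of 1.194 (1.138 to 1.252), and Trp53 was at 23.11 and 25.94, a ratio of 1.122 (1.057 to 1.191). The gene for p53 and most of its targets thus lay on opposite sides of 1 between these control libraries. The siNeg library is the denominator of the siRNA comparison and wild type that of the knockout comparison, so these 3 sets of ratios share libraries and are given side by side only. For Cdkn1a the log2 ratios were 0.06 in the knockout, 0.08 with siDyrk2 and -0.26 between the controls, and for Mdm2 0.00, 0.09 and -0.09.

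**Figure D3:**
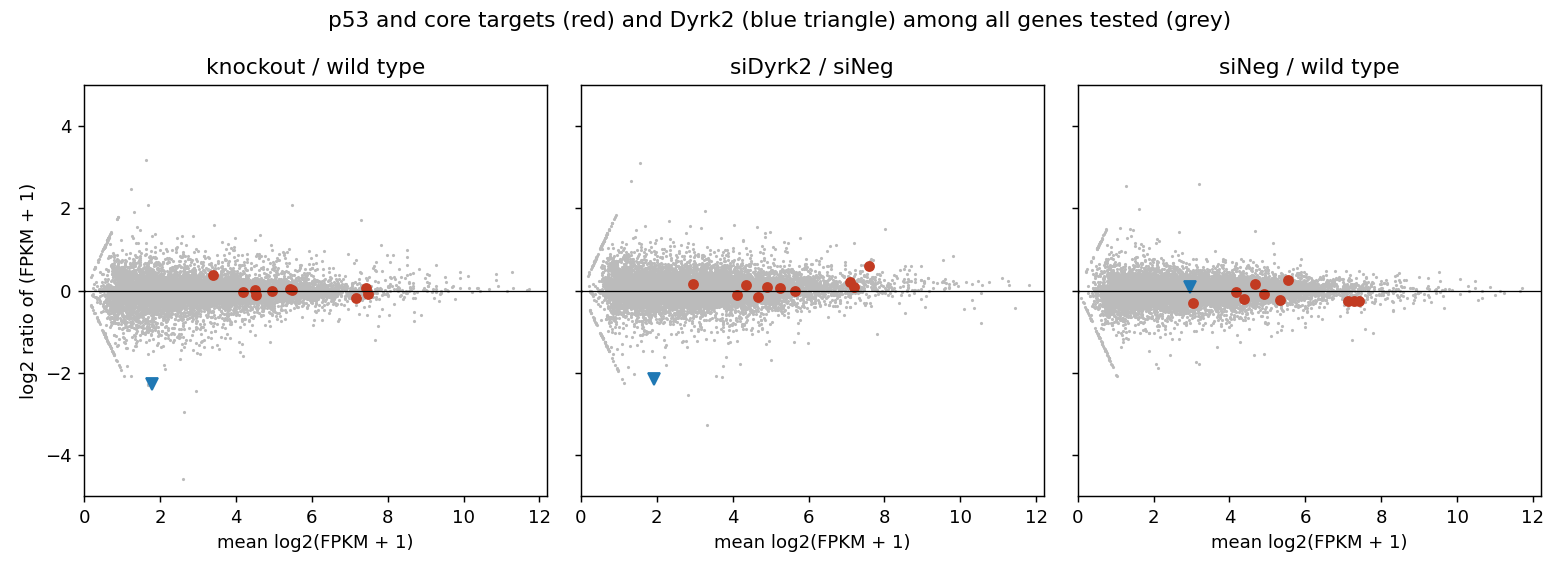
Log2 ratio of FPKM + 1 against mean level for the 12817 genes tested (grey), the 10 members (red) and Dyrk2 (blue triangle) in the 3 comparisons. Most members lie near 0, Ccng1 is at 0.61 with siDyrk2, above the 95th percentile of all genes (0.52), Dyrk2 lies far below 0 at -2.27 in the knockout and -2.15 with siDyrk2, and in the right panel the 3 most abundant members sit together at -0.24 to -0.26.

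A joint fit across all genes asked which of them differed in both comparisons of lowered Dyrk2. It used limma on log2(FPKM + 1) with the approach (knockout pair or siRNA pair) as a term, which left 1 residual degree of freedom, and its p-values measure only how far both approaches disagree. No member passed an adjusted p of 0.05, and none had an unadjusted p under 0.05. Over all 12219 genes fitted 0 passed the adjusted threshold by limma (0%), Dyrk2 included (adjusted p = 0.142), and 1060 had an unadjusted p under 0.05 (8.68%).

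The joint difference was largest for Sesn1 and Ccng1, both at 0.26 on the log2 scale. For Sesn1 the standard error was 0.11 and the adjusted p from limma 0.599, with higher values in both comparisons. For Ccng1 the standard error was 0.20 and the adjusted p from limma 0.740, since it was lower in the knockout and higher with siDyrk2. Mdm2 had 0.05 with a 95% interval of -0.22 to 0.31, Cdkn1a 0.07 with -0.22 to 0.36, and Trp53 -0.13 with -0.39 to 0.13. Each of these intervals includes 0.

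A wider list of 39 other reported p53 targets, of which 38 were measured, gave a similar picture with a few exceptions. The list was chosen with earlier results of these data known. In the knockout 16 were higher (43.7% of all genes) and 21 lower (55.6%), with a median of -0.02, equal to that of all genes. Of the 38, 1 was at least 1.5-fold higher on FPKM + 1 (2.58% of all genes). That gene was Steap3, a metalloreductase of iron uptake, at 11.51 FPKM in wild type against 19.97 in the knockout (log2 ratio 0.75). Gdf15, a stress-induced cytokine, was at 3.11 and 4.94 FPKM (0.53), Dram1, a lysosomal autophagy regulator, at 2.57 and 3.60 (0.37) and the junction protein gene Perp at 5.44 and 7.28 (0.36).

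The lowest of that list in the knockout were Pidd1, a death-domain adaptor, at 1.99 against 3.10 FPKM (-0.46), the phosphatase gene Ptprv at 5.08 against 7.31 (-0.45), Dcxr, a sugar reductase, at 21.98 against 27.04 (-0.29) and the polo-like kinase gene Plk2 at 23.05 against 27.64 (-0.25). Of the genes of the apoptosis machinery, Bax, which permeabilises mitochondria, was at 78.50 FPKM in wild type against 74.38 in the knockout, Bbc3 (PUMA) at 15.35 and 18.32, and Pmaip1 (NOXA) at 10.98 and 11.01. The interval of the ratio left out 1 for Bbc3, at 1.193 (1.082 to 1.317), and for Bax, at 0.948 (0.898 to 0.999). Apaf1, also of this machinery, was at 13.81 FPKM in wild type against 11.80 in the knockout, a ratio of 0.854 (0.809 to 0.902). Bax, Bbc3, Pmaip1 and Apaf1 were outside the rule by which genes were named and were chosen after their values were seen. They are given because apoptotic targets are those that DYRK2 has been linked to.

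With siDyrk2 26 of the 38 were higher (54.3% of all genes) and 12 lower (45%). Their median was 0.12, against 0.02 over all genes. Gdf15 led at 2.59 FPKM with siNeg against 6.11 with siDyrk2 (ratio 2.36, 1.85 to 3.02, log2 ratio of FPKM + 1 of 0.99). It was the 1 gene of the list at least 1.5-fold higher on FPKM + 1 (3.77% of all genes), and 0 reached 2-fold (0.749% of all genes). Ephx1, an epoxide hydrolase, was at 141.30 and 198.26 FPKM (0.49), Triap1, an inhibitor of apoptosis, at 13.62 and 19.05 (0.46) and Trp53cor1, a noncoding RNA also known as lincRNA-p21, at 1.33 and 2.20 (0.46). Without Gdf15, left out after its values were seen, the median was again 0.12.

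The lowest with siDyrk2 were the kinase gene Plk3 (-0.41), Perp (-0.33), Ptprv (-0.26) and the death receptor gene Fas (-0.13). Bax was at 75.27 FPKM with siNeg against 89.69 with siDyrk2, Bbc3 at 15.03 and 16.20, and Pmaip1 at 9.07 and 11.71. Apaf1 was lower, at 13.70 FPKM with siNeg against 12.46 with siDyrk2 (ratio 0.909, 0.859 to 0.962). Between the controls 30 of the 38 were lower with siNeg (51% of all genes), with a median of -0.09. On FPKM + 1, 0 of the 38 were at least 1.5-fold different (3.78% of all genes). The extremes there were Dcxr (-0.47), Steap3 (-0.47), Ptprv (-0.46) and the noncoding Pvt1 (-0.32) on the lower side, and Plk3 (0.57), Ei24 (0.40), Dram1 (0.17) and Plk2 (0.16) on the higher side.

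Genes that act on p53 were measured to see what else differed around it. Of 32 regulators 30 were measured, with medians of -0.05 in the knockout, -0.05 with siDyrk2 and 0.03 between the controls. On FPKM + 1, Dyrk2 itself was the 1 regulator at least 1.5-fold different in the knockout (6.62% of all genes). Dyrk2 and Ppp1r13b were those with siDyrk2, both lower (2.73% of all genes). On the deposited FPKM, without the added 1, Chek1 also passed in the knockout, at a ratio of 0.591 (0.483 to 0.722). Ppp1r13b encodes ASPP1, which steers p53 towards apoptotic targets, and was at 7.75 FPKM in wild type, 6.35 in the knockout, 8.88 with siNeg and 4.89 with siDyrk2. Ppp1r13l, encoding the inhibitory relative iASPP, was at 4.75, 5.18, 4.64 and 6.58 FPKM in the same order. With siDyrk2 the ASPP1 gene was thus lower (ratio 0.551, 0.493 to 0.614) and the iASPP gene higher (ratio 1.418, 1.233 to 1.633). Trp53bp2, encoding the other activating relative ASPP2, was at 9.11 FPKM with siNeg against 9.67 with siDyrk2, a ratio of 1.061 (0.964 to 1.168), and is added here after its values were seen.

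Mdm4, the partner of MDM2 that masks the p53 activation domain, was at 6.82 FPKM in wild type, 5.84 in the knockout, 7.56 with siNeg and 5.33 with siDyrk2. It was lower in both libraries with little Dyrk2, by 14.4% and 29.5%. Of the kinases upstream of p53, Hipk2 was at 3.19, 3.52, 3.17 and 2.21 FPKM in the same order of libraries and Atm at 3.97, 3.09, 4.04 and 3.63. The checkpoint kinase gene Chek2 was at 4.25, 3.03, 4.24 and 4.75 FPKM and Chek1 at 2.57, 1.52, 2.99 and 2.09. Hipk2 was thus low with siDyrk2, Chek2 in the knockout, and Atm and Chek1 in the knockout and, by less, with siDyrk2.

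Cdkn2a, whose locus encodes both p16 and ARF, the inhibitor of MDM2, was at 43.76 FPKM in wild type, 37.68 in the knockout, 44.46 with siNeg and 50.03 with siDyrk2. These gene-level values do not separate its transcripts. The family members of p53 were hardly detected. Trp63 was at 0.02 to 0.29 FPKM, and Trp73 was listed at 0 in 3 libraries, where 3 fragments would have given 0.0227 to 0.0271 FPKM, and at 0.03 with siDyrk2.

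Cell cycle genes that p53 represses through p21 and the DREAM complex behaved unlike the members. DREAM binds promoters of cell cycle genes and silences them when cyclin-dependent kinases are inhibited. All 24 genes of this list were lower in the knockout (55.6% of all genes), with a median of -1.13. On FPKM + 1, 21 of them were at least 1.5-fold lower (4.04% of all genes) and 15 at least 2-fold (1.21% of all genes). Ccne2, a cyclin of S phase entry, was at 8.74 FPKM in wild type against 2.58 in the knockout, the mitotic kinase gene Plk1 at 12.22 and 3.62, and Top2a, a topoisomerase of dividing cells, at 18.09 and 6.15.

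Cdkn1a was 4.3% higher in the same comparison, so the transcript of p21 and the DREAM genes differed by very unequal amounts. With siDyrk2 19 of the 24 were lower (45% of all genes), with a median of -0.16. Of these, 1 was at least 1.5-fold lower on FPKM + 1 (2.73% of all genes), Ccne2 at 4.89 against 9.65 FPKM. Mybl2, a subunit that joins DREAM components to activate mitotic genes, was at 2.41 against 3.81 FPKM and Chek1 at 2.09 against 2.99. Between the controls 23 of 24 were higher with siNeg (48.3% of all genes), with a median of 0.42, while 8 of the 10 members were lower. At least 1.5-fold higher on FPKM + 1 were 2 genes (1.41% of all genes), Plk1 and Mki67. Plk1 was at 20.39 FPKM with siNeg, Mki67, the proliferation marker, at 21.42 against 13.43 in wild type and Ccnb2, a mitotic cyclin, at 21.15 against 14.11. The part of the cultures' growth state in the members' values was not tested.

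In the knockout, though not between the controls, other inhibitors of cyclin-dependent kinases differed more than Cdkn1a did. With siDyrk2, Cdkn2b (log2 ratio 0.23), Cdkn2a (0.17) and, barely, Cdkn1c (-0.09) differed more in size than Cdkn1a (0.08). The rest of that list did not. Cdkn1c, encoding p57, was at 207.89 FPKM in wild type against 380.70 in the knockout, a ratio of 1.831 (1.787 to 1.877), and at 186.09 with siNeg against 175.35 with siDyrk2. Cdkn2c, encoding p18, was at 9.07 FPKM in wild type against 4.82 in the knockout, and Cdkn2d, encoding p19, at 7.36 and 5.05. The knockout library was thus the high one for p57 and the low one for p18 and p19. Cdkn2b, encoding p15, was at 36.23 FPKM in wild type, 38.68 in the knockout, 36.15 with siNeg and 42.72 with siDyrk2.

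**Figure D4:**
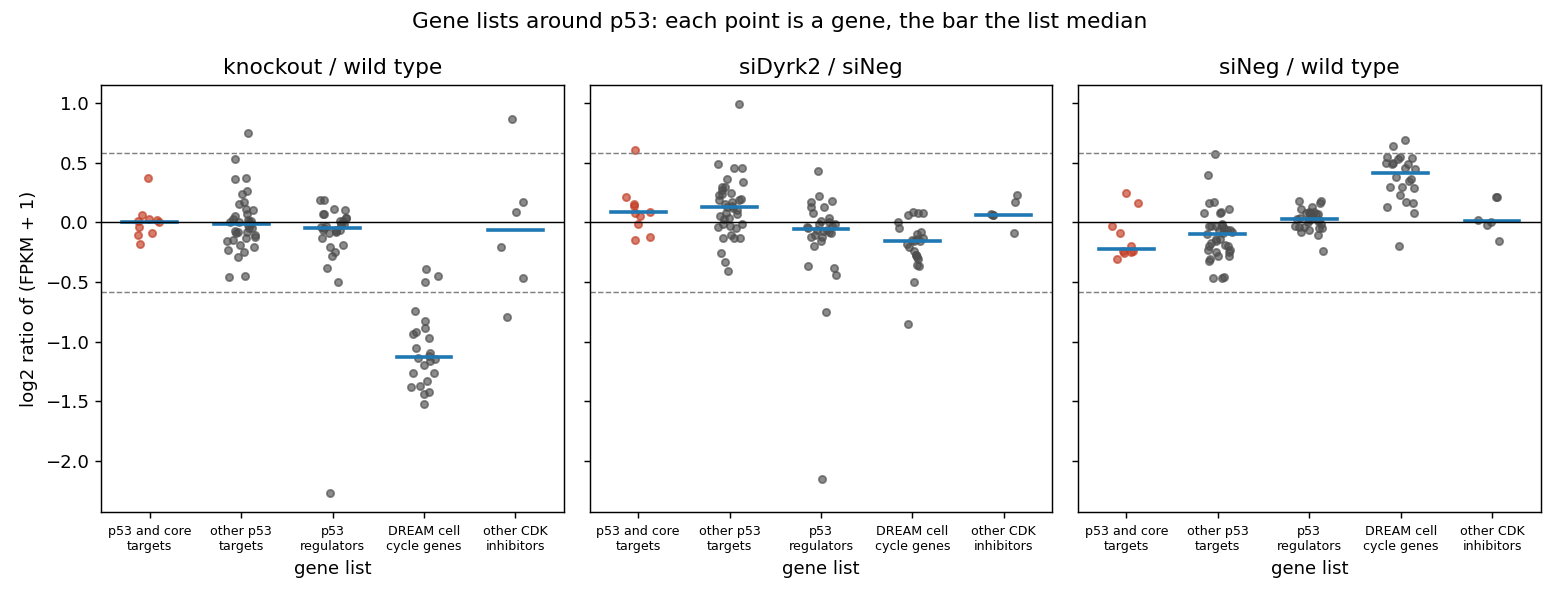
Log2 ratio of FPKM + 1 for each measured gene (points) of 5 lists in the 3 comparisons, with the list median as a blue bar and 1.5-fold as dashed lines. The members (red) have medians of 0.01, 0.08 and -0.22 from left to right, and the DREAM genes of -1.13, -0.16 and 0.42.

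For Trp53, Cdkn1a and Mdm2 the genes with the nearest pattern over the 4 libraries were sought, and the other 7 members were not examined in this way. Nearness was measured as the distance between centred log2(FPKM + 1) values over the 4 libraries, among 6999 protein-coding genes with a mean of at least 5 FPKM. The nearest to Trp53 were Fam107b (distance 0.014), Smc1a (0.016) and Actr3 (0.017), to Cdkn1a Tom1l2 (0.012), Ppp1r35 (0.015) and Zscan26 (0.022), and to Mdm2 Osbpl2 (0.008), Rtcb (0.009) and Fam172a (0.011). Within a distance of 0.1 lay 347 genes for Trp53, 143 for Cdkn1a and 508 for Mdm2. With 4 libraries such likeness carries little information.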

How the data were processed

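Polyadenylated RNA was sequenced from stranded libraries, per the labels' protocols. Per the submitters' processing notes, GRCm38 was the build and the tools were cutadapt 1.9.1 and HISAT2 2.0.1. Which program counted fragments, with which annotation and strand setting, is not stated there. The authors deposited FPKM with 2 decimals, beside exonic lengths. Identifiers were matched to GENCODE M21 (55394 of 55573). Fragments were recovered from the steps of FPKM in genes of at most 200 bases (at least 99.17% of them whole within 0.005 FPKM) and gave the exact 95% Clopper-Pearson (ratios) and Poisson (levels) intervals. Ratios used a pseudocount of 1 FPKM. Genes were counted by size, 1.5-fold and 2-fold, with no test within a comparison. The joint fit used limma 3.58.1 in R 4.3.3 with a mean-variance trend and Benjamini-Hochberg adjustment, on genes with at least 1 FPKM in 2 libraries, and was tested on simulated data. Alternatives were pseudocounts of 0.1 and 5 FPKM, trimmed-mean and upper-quartile scaling, other filters and fits without the approach term or the trend.

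The members and lists were chosen with earlier results of these data known. A gene of the list of other targets is not reported here and was left out of that list. Genes named were the members, Dyrk2, the 4 highest and 4 lowest other targets per comparison, regulators with a log2 ratio of at least 0.4 in size plus Mdm4, Cdkn2a, Hipk2, Atm and Chek2, and up to 3 genes of each other list. Where a symbol had 2 identifiers (Ddit3), that with the higher mean was used.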

Additional observations from a re-analysis of the deposited data

Results flagged for a closer look

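Of 131 measured genes among the members and the p53, cell cycle, kinase inhibitor, ATF4 and FOXO lists, 13 lay on opposite sides of 1 in the knockout and siDyrk2 comparisons. These comparisons share no library, and the counting intervals of each gene left out 1 in both, with log2 ratios of at least 0.05 in size. Some of these genes are outside the rule for named genes and are given because they met this one. With 1 library per group, the differences between comparisons were not tested. How many of all genes met the same rule was not counted, so the number flagged is not read as particular to these lists. The difference of log2 ratios, knockout minus siDyrk2, was -0.69 for Ccng1 (-0.09 and 0.61) and -0.39 for Phlda3 (-0.18 and 0.21) among the members.

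Among the other p53 targets it was 0.69 for Perp (0.36 and -0.33), -0.44 for Rps27l (-0.15 and 0.30), -0.37 for Tnfrsf10b (-0.13 and 0.24), -0.33 for Bax (-0.08 and 0.25) and -0.31 for Btg2 (-0.12 and 0.19). Perp was thus the 1 target of this group higher in the knockout and lower with siDyrk2, and the other 4 went the way of Ccng1. Among the regulators it was -0.38 for Cdkn2a (-0.21 and 0.17) and -0.27 for Npm1 (-0.09 and 0.18). Cdkn1c had 0.95 (0.87 and -0.09). Of the ATF4 list, Asns had -0.18 (-0.09 and 0.09) and Slc7a11 0.28 (0.14 and -0.14), and of the FOXO list Sesn3 had 0.42 (0.22 and -0.20).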

How the results depend on the processing

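No paired analysis was possible because each group held 1 library and no replicate numbers are shared. For the same reason no replicate could be left out. The approach term of the joint fit sets each library with lowered Dyrk2 beside its own control and is no replicate block. Without that term limma called 0 genes, with 597 at an unadjusted p under 0.05. The 120 ratios of the members under other pseudocounts and scalings kept their direction and moved by at most 0.10 on the log2 scale. Ccng1 with siDyrk2 ranged from 0.59 to 0.61. The joint fit with limma called 0 members and 0 genes at an adjusted p under 0.05 under every alternative, with 597 to 1300 genes at an unadjusted p under 0.05. The smallest adjusted p of a member ranged from 0.550 to 0.974.

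Counts by size depended on the pseudocount. In the knockout 331 genes were at least 1.5-fold higher and 518 lower, 609 and 868 with a pseudocount of 0.1 FPKM, and 87 and 114 with 5 FPKM. With siDyrk2 they were 483 and 350, then 874 and 616, and 111 and 105. Between the controls they were 181 and 304, then 412 and 678, and 20 and 56. At 2-fold the knockout had 73 and 155 genes, 203 and 404 with 0.1 FPKM, and 8 and 14 with 5 FPKM. With siDyrk2 the 2-fold counts were 96 and 102, then 297 and 209, and 19 and 14. Between the controls they were 47 and 72, then 127 and 213, and 3 and 8. With a filter of 5 FPKM, the 1.5-fold counts were 164 and 237 in the knockout, 250 and 187 with siDyrk2, and 66 and 144 between the controls. The 2-fold counts were then 28 and 75, 43 and 42, and 9 and 23. Among protein-coding genes alone the 2-fold counts were 27 and 85, 38 and 48, and 2 and 15. The 1.5-fold counts moved by over 1.5 times to 274 higher with siDyrk2, and to 67 and 160 between the controls. These last alternatives test fewer genes.

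With a pseudocount of 0.1 FPKM, 2 other targets were at least 1.5-fold higher in the knockout and 1 lower, 2 were at least 1.5-fold and 1 at least 2-fold higher with siDyrk2 and 1 was at least 1.5-fold higher between the controls. Regulators at least 1.5-fold lower in the knockout were then 2 and DREAM genes with siDyrk2 2. With 5 FPKM, 0 other targets were at least 1.5-fold higher and 1 regulator lower with siDyrk2, and 2 DREAM genes were at least 2-fold lower in the knockout. In the same setting 0 DREAM genes passed 1.5-fold with siDyrk2 or between the controls, 0 kinase inhibitors were lower and 0 ATF4-linked genes higher in the knockout, and 0 ATF4-linked genes were lower between the controls. The DREAM median was -1.32 and -0.66 in the knockout and 0.49 and 0.28 between the controls with 0.1 and 5 FPKM. A larger pseudocount shrinks ratios of weakly expressed genes by construction.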

Other observations

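Sesn2 is also a target of the stress factor ATF4, and Sesn1 of FOXO factors, so both programmes were read beside them. In the knockout 9 of 16 ATF4-linked genes lay above wild type (43.7% of all genes) and 7 below (55.6%), with a median of 0.02. The medians were 0.04 with siDyrk2 and -0.03 between the controls. Atf3, a stress-induced transcription factor, was at 6.77 FPKM in wild type, 11.08 in the knockout, 3.56 with siNeg and 4.99 with siDyrk2. Nupr1, a stress-induced nuclear protein, was at 27.36, 40.30, 32.57 and 42.24 FPKM in the same order, and Cebpb, a leucine zipper factor, at 33.18, 46.23, 29.72 and 34.47. Aldh1l2, a mitochondrial folate enzyme, was at 34.38 FPKM in wild type and 22.14 with siNeg.

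Of 10 measured FOXO-linked genes 9 were higher in the knockout, where 43.7% of all genes were, with a median of 0.13, and the medians were 0.04 with siDyrk2 and -0.07 between the controls. Txnip, an inhibitor of thioredoxin and glucose uptake, was at 46.99 FPKM in wild type against 81.57 in the knockout, and at 54.81 with siNeg and 56.86 with siDyrk2. Klf9, a zinc finger factor, was at 13.06 FPKM in wild type, 17.96 in the knockout, 10.25 with siNeg and 13.44 with siDyrk2. Irs2, an adaptor of insulin signalling, was lower with siDyrk2, at 4.79 against 7.20 FPKM.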
